A study of Mus musculus with 4 samples.

Results

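Interferon-stimulated genes are the genes that a cell turns on when an interferon reaches it, and 43 of them were followed here in cells of mouse endosteal bone marrow. The genes were named by symbol, as widely known interferon targets, by a rule that uses no measured value. Of the 43, 42 were listed in all 4 gene tables and were analysed, out of 26600 genes that these tables share, and Mx2 was not analysed here. A subset of 22 members, the antiviral core, holds the effectors and sensors usually tied to type I interferon (for example Isg15, Ifit1 and Rsad2). Another subset of 11 members holds the immunity-related GTPases (Iigp1, Igtp, Irgm1, Irgm2 and Ifi47) and the guanylate-binding proteins (Gbp2 to Gbp7), usually tied to interferon gamma.

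Type I interferons bind the receptor made of Ifnar1 and Ifnar2, and interferon gamma binds the receptor made of Ifngr1 and Ifngr2. Both receptors act through Janus kinases, which pass the signal to transcription factors. The motif best known from targets of type I interferon is the interferon-stimulated response element (ISRE), and that best known from targets of interferon gamma is the gamma-activated site (GAS). Interferons are known in the marrow for effects on blood stem cells and on bone resorption, and many target genes keep a low level of expression without infection.

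The cells came from male Col2:Td mice (Col2-Cre with Rosa26 lsl-tdTomato, strain label B6SJL/F1), in which a type II collagen promoter drives Cre and tdTomato (Td) then marks chondrocytes and mesenchymal lineage cells for life. All 4 groups carried the same alleles and none was treated. They differed in age: 1 month (2 mice pooled), 1.5 months (3 mice), 3 months (3 mice) and 16 months (3 mice), each sequenced as 1 droplet single-cell library. Cells were sorted either as the top 1% of Td+ cells or as a Td+ peak where one was visible, and blood cells were also present among the sorted cells. With 1 library per age, no difference between ages carries a replicate error or a test, and age, animals, sort, library preparation and the gene list of the table cannot be told apart. The intervals given below are exact 95% Poisson intervals for levels and exact binomial intervals for shares, and they cover counting error only.

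After filters on genes per cell (200 to 6000) and mitochondrial UMIs (at most 5%), 8308, 5453, 4180 and 6143 cells remained at 1, 1.5, 3 and 16 months, out of 8417, 5745, 4516 and 9229 barcodes. The mitochondrial filter removed 32.4% of the barcodes at 16 months. The median depth of the cells kept was 10280, 9621, 6264 and 9670 UMIs. The 16 month table lists 31054 genes against 27999 in the other 3, which share 30 to 61 cell barcodes pair by pair and at most 2 with the 16 month library. The gene list of the table thus differed with age as well. Between 98.3% and 98.7% of the UMIs of each library lay in shared genes. Levels are given as CPM, the UMIs of a gene scaled to all UMIs of the shared genes, taken over all cells of a class from 1 library and not divided by gene length. Cell classes come from clusters named by marker genes, with the 42 members left out of the genes used for clustering. The class called AD-like holds the Adipoq-expressing adipogenic stromal cells of the marrow, with 215, 1172, 428 and 3676 cells by age and Adipoq at 1853, 3147, 1652 and 1576 CPM. EMP-like and LMP-like name clusters with markers of early and late mesenchymal progenitors, OB-like and CH-like those of osteoblasts and chondrocytes.

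To show what the promoters of these genes share, 250 bases before each transcription start were searched on both strands for the letters of an ISRE (GAAA and again GAAA after any 2 bases, which reads TTTC and TTTC on the other strand) and of a GAS (TTCNNNGAA, the same on both strands). RefSeq (GRCm38.p6) promoter windows matched 32 of the 43 members by symbol. An ISRE match was present in 16 of these 32 (50%) and in 3.46% of all 27025 genes with a window. A GAS match was present in 10 of 32 (31.2%) and in 8.13% of all genes, and 6 members (18.8%) had both, against 0.459% of all genes. All 4 guanylate-binding protein genes with a window held an ISRE match, as did 3 of 4 immunity-related GTPases and 3 of 4 IFIT genes, and none of the 3 antigen processing genes did. Neither motif was present in the windows of Ifitm3, Irf7, Ifih1, Oasl2, Cmpk2, Ifi35, Ifi44, Xaf1, Lgals3bp, Ifi47, Psmb9 and Tap1. A match describes these letters only and is not a measured binding site. The stretches below, written 5′ to 3′ on the strand of the gene with the matched letters in capitals, come from members whose levels the results below turn on.
Irf1 (GAS), chr11:53769909-53769947, plus strand: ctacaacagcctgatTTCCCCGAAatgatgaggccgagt
Isg15 (ISRE), chr4:156200860-156200911, minus strand: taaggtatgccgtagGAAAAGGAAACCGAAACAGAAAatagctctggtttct
Bst2 (GAS and ISRE), chr8:71537572-71537623, minus strand: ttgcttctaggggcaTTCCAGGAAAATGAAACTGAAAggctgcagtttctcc
Rsad2 (ISRE), chr12:26456548-26456587, minus strand: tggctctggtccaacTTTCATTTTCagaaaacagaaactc
Gbp2 (ISRE), chr3:142620589-142620628, plus strand: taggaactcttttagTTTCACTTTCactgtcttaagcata
Irgm1 (ISRE), chr11:48871421-48871465, minus strand: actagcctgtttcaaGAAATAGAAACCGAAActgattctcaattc
Psmb8 (GAS), chr17:34198083-34198121, plus strand: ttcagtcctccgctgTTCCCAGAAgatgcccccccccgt
In Isg15, 3 ISRE matches overlap in 1 run, in Irgm1 a pair of ISRE matches overlap, and in Bst2 a GAS match overlaps a pair of overlapping ISRE matches.

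Summed over all 42 members, the interferon-stimulated genes were highest in AD-like cells in every library. In order of age, the sum in AD-like cells was 5510 CPM (5398 to 5624), 6018 CPM (5961 to 6075), 5739 CPM (5629 to 5851) and 4317 CPM (4296 to 4339). Endothelial-like cells came next at the first 3 ages, with 4314, 5030 and 4563 CPM. At 16 months the endothelial-like sum of 3952 CPM (3845 to 4061) overlapped in its interval with the EMP-like sum of 3984 CPM (3873 to 4097). The bone-forming and cartilage classes were low throughout. OB-like cells had 511, 380, 512 and 633 CPM by age and CH-like cells 576, 299, 276 and 781 CPM. From these low levels the ratio of 16 to 3 months was 1.24 (1.17 to 1.31) in OB-like and 2.83 (2.64 to 3.04) in CH-like cells. In osteocyte-like cells, 33 and 53 in number, it was 3.48 (2.63 to 4.70). LMP-like cells lay above the OB-like level in the young libraries, with 846, 869 and 1055 CPM, and were higher still at 16 months, with 2101 CPM (2044 to 2160). Among blood cells, monocyte-like cells had 3937, 1833, 3091 and 2870 CPM (the second from 6 cells) and neutrophil-like cells 1494, 466, 1538 and 1022 CPM.

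**Figure D1:**
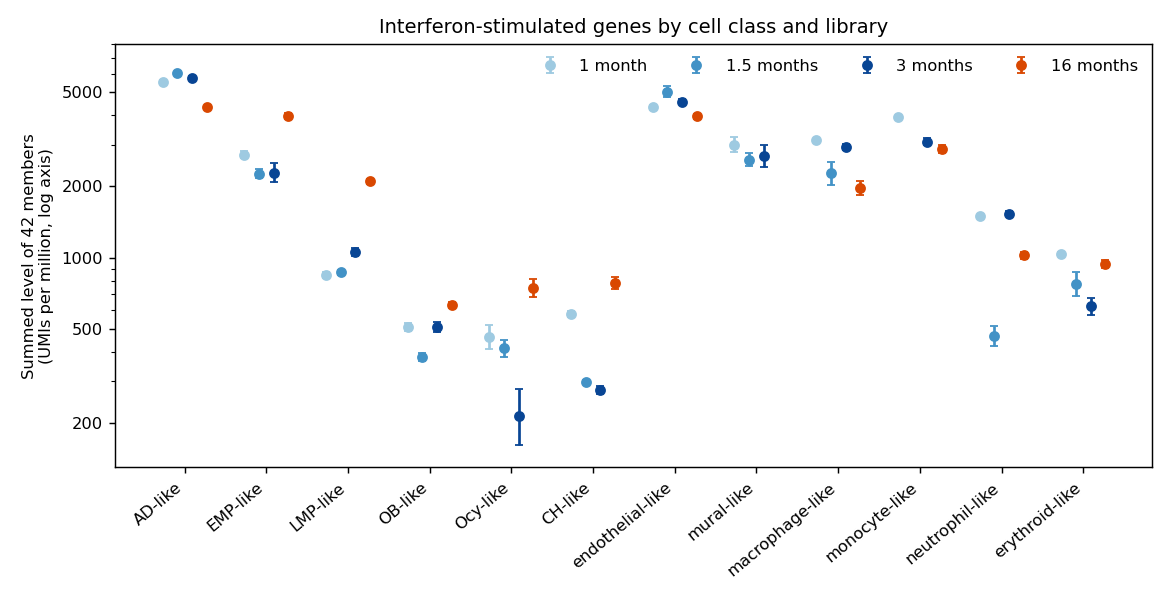
Summed level of the 42 interferon-stimulated genes (CPM) in each cell class of at least 20 cells, on a log axis, with 1 point per library and bars for the exact 95% Poisson interval. AD-like cells have the highest sum at each age, between 4317 and 6018 CPM, and OB-like cells stay between 380 and 633 CPM.

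A single gene carried much of that sum. Ifitm3, a membrane protein that blocks the entry of enveloped viruses, made up 52.4%, 49.4%, 60.5% and 45.1% of the member UMIs of AD-like cells by age. Without Ifitm3 the AD-like sums were 2622, 3045, 2269 and 2369 CPM, and the endothelial-like sums 2074, 2676, 2294 and 2540 CPM. Without this gene the AD-like and endothelial-like intervals overlapped at 3 months, and at 16 months the endothelial-like sum (2454 to 2628) was above the AD-like one (2353 to 2385). The antiviral core was at 724, 678, 535 and 400 CPM in AD-like cells and 759, 693, 602 and 624 CPM in endothelial-like cells.

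**Figure D2:**
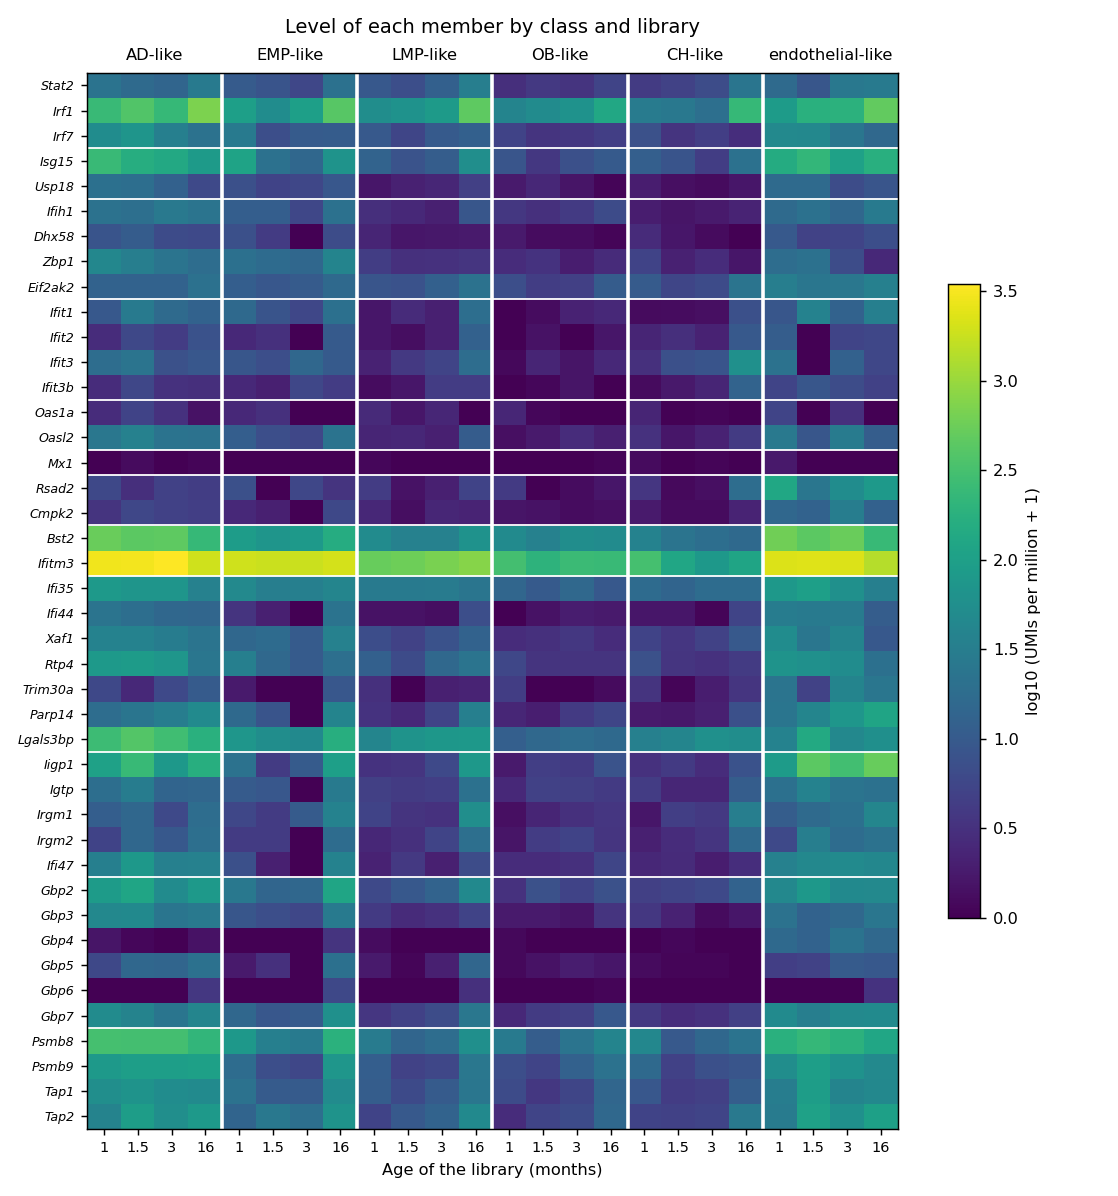
Level of each member (colour, on a log10 scale of CPM + 1) in 6 cell classes, with the age of the library in months along the bottom and members ordered by role. Ifitm3 and Bst2 are bright in AD-like and endothelial-like cells of all ages, whereas Mx1, Gbp4 and Gbp6 are dark in nearly every column.

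Most members were expressed at low levels. Of the 42, 24 reached 50 CPM in some class of at least 20 cells, and 18 did not. Mx1, a dynamin-like GTPase that blocks viral replication, was at 0 UMIs in EMP-like cells of every library and nowhere above 15 CPM in such a class. Gbp6 was nowhere above 4.86 CPM. AD-like cells held the highest level of 14, 17, 9 and 3 of the 42 members, in order of age. At 16 months EMP-like cells held the highest level of 11 members and endothelial-like cells of 10.

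The sum in AD-like cells at 16 months was 0.752 times that at 3 months (0.737 to 0.767), and the members behind it differed in both directions. The largest role by level, the membrane restriction factors, was lower at 16 months. Ifitm3 was at 2888, 2973, 3470 and 1949 CPM by age. Bst2, or tetherin, which holds budding virus particles at the cell surface, was at 534, 444, 459 and 232 CPM. For both genes the 16 month library was below each of the other 3. Ifitm3 at 16 months was 0.561 times its 3 month level (0.547 to 0.576) and Bst2 0.506 times (0.471 to 0.544). Without Ifitm3, the summed ratio of the other 41 members was 1.04 (1.01 to 1.08). Without both Ifitm3 and Irf1, a gene that was higher at 16 months, it was 0.825 (0.798 to 0.854), below 1 again. The antiviral core, which holds neither gene, had a ratio of 0.748 (0.701 to 0.80).

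The ISG15 system was also lower with age in AD-like cells. Isg15, a ubiquitin-like protein that is conjugated to other proteins, was at 250, 162, 138 and 83.2 CPM. Usp18, the protease that removes Isg15 and also restrains the type I receptor, was at 19.3, 17.8, 11.6 and 5.14 CPM. The 1 month library was the highest for both, and the 16 month library the lowest. Rtp4, an interferon-induced protein of the receptor transporter protein family, was at 80.3, 87.4, 70.3 and 23.2 CPM. Its 16 month level was 0.330 times that at 3 months (0.274 to 0.401). Irf7, the transcription factor that amplifies type I interferon production, was at 52.5, 70.2, 33.2 and 20.8 CPM. All 3 young libraries were above the 16 month one for both. Ifi35 was at 79.7, 69.9, 68.7 and 35.0 CPM. The secreted glycoprotein Lgals3bp was at 266, 395, 281 and 178 CPM. Here too the 16 month library was the lowest of the 4.

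Irf1, a transcription factor that interferon gamma induces and whose promoter holds the GAS match printed above, was the clearest exception. Its level in AD-like cells was 249 CPM (226 to 274), 381 CPM (366 to 395), 234 CPM (212 to 258) and, in the oldest library, 689 CPM (681 to 698). The 16 month library was above each of the others, by 1.81 to 2.94 times. The immunity-related GTPases, which attack the vacuoles of intracellular parasites, were highest not at 16 but at 1.5 months as a group, with 171, 376, 137 and 250 CPM. Iigp1 was at 106, 242, 77.0 and 166 CPM, so that its 3 month level was the lowest and its 1.5 month level the highest. Irgm1 was at 10.3, 14.3, 4.98 and 17.7 CPM and Irgm2 at 4.22, 14.4, 8.31 and 18.4 CPM. The 3 month level of Irgm1 rests on 9 UMIs. Ifi47 was at 33.2, 75.3, 33.8 and 34.9 CPM, again with a peak at 1.5 months. Stat2, a subunit of the type I signalling complex, was at 21.1, 15.8, 13.3 and 27.3 CPM, and Parp14, an ADP-ribosyltransferase, at 17.5, 22.6, 31.0 and 47.9 CPM, with the 16 month library the highest for both.

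The guanylate-binding proteins, which coat and break such vacuoles, summed to 189, 218, 109 and 171 CPM in AD-like cells. Gbp2 was at 88.1, 119, 50.4 and 81.8 CPM, with its lowest value at 3 months and its highest at 1.5 months. The antigen processing genes, by contrast, had similar sums at all ages, of 483, 552, 509 and 438 CPM. Psmb8, an immunoproteasome subunit, was at 312, 299, 307 and 211 CPM, whereas its partner Psmb9 was at 80.3, 95.5, 96.4 and 101 CPM. Tap1 was at 54.3, 65.3, 51 and 48.6 CPM and Tap2 at 36.8, 91.4, 54.8 and 77.8 CPM, the pair that moves peptides into the endoplasmic reticulum. Apart from Psmb8, the 16 month value of these genes lay within or near the range of the young libraries.

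The RNA sensors and antiviral effectors were low in AD-like cells at all ages. The sensors Ifih1, Dhx58, Zbp1 and Eif2ak2 summed to 82.1, 72.2, 65.9 and 64.6 CPM, the IFIT family, which binds foreign RNA, to 29.6, 59.7, 27.7 and 28.8 CPM, and the OAS family to 26.6, 39.3, 23.3 and 21.3 CPM. Zbp1, a sensor of Z-form nucleic acids, was at 42.2, 32.1, 22.2 and 17.5 CPM, and Xaf1 at 36.2, 36.4, 29.9 and 22.3 CPM. Ifi44 was at 21.7, 17.9, 14.4 and 13.8 CPM and Ifit3 at 17.5, 22.2, 6.65 and 8.14 CPM. These 4 genes were lower at 3 and 16 months than in the pair of younger libraries. Rsad2 (viperin) and its neighbour Cmpk2 summed to at most 7.75 CPM. Ifit3 and Ifit3b, Oas1a, Trim30a and the members of the Gbp and Irgm families have close relatives in the genome, and how reads shared between copies were assigned can affect their levels.

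The counts of members that differed can be set against those of all genes. A gene was counted as differing between 16 and 3 months where its level differed at least 2-fold and its mean over the 4 libraries was at least 5 CPM, with 0 UMIs set to 3 counts. Of the 42 members, 34 passed this filter. Of all 42, 5 were at least 2-fold higher (Irgm1 3.55-fold, Irf1 2.94-fold, Irgm2 2.21-fold, Iigp1 2.15-fold and Stat2 2.05-fold), or 11.9%. Among all genes this was so of 12.2% of the 9393 past the filter and of 4.30% of the 26600 listed. The members in turn were 14.7% of the 34 past the filter, and passing it depends in part on the 16 month level itself. Without the 22 cells of a 16 month cluster led by Cxcl9 and Cxcl10, described below, 4 members were at least 2-fold higher. Iigp1, at 149 CPM without these cells, was then no longer past the threshold. Rtp4 and Usp18 were at least 2-fold lower, 2 of 42 or 4.76%, where 5.5% of the genes past the filter and 1.94% of those listed were. The median log2 ratio was 0.01 over the members that passed and 0.15 over all genes that passed. The 16 month library was at least 2-fold below each of the other 3 in Rtp4 and Usp18 (a pattern of 2.9% of all genes past the filter), and at least 2-fold above each of them in 0 members (5.44% of all genes).

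In LMP-like cells every member past the 2-fold threshold was higher at 16 than at 3 months. The sum was 1.99 times as high at 16 as at 3 months (1.90 to 2.08), and 3.38 times as high without Ifitm3 (3.16 to 3.63), which itself was at 520, 571, 665 and 781 CPM. Of all 42 members, 16 were at least 2-fold higher (38.1%, or 66.7% of the 24 past the filter), against 18.1% of the 9413 genes past the filter and 6.41% of all those listed, and 0 were at least 2-fold lower, against 8.01%. The median log2 ratio was 1.95 over the 24 members past the filter, against 0.16 over all genes that passed. Passing the filter depends in part on the 16 month level itself. Ifit1, Parp14 and Irgm1, for example, were under 5 CPM in each of the 3 young libraries and passed only through the 16 month level. The 66.7% and the median of 1.95 rest in part on such members. For 15 of the 16 the 16 month level was at least 2-fold above each of the 3 young libraries, as it was for 11.9% of all genes past the filter, and the exception was Psmb8. The LMP-like class was not built alike at all ages. At 3 months its 476 cells fell in equal numbers into a cluster led by Postn and Ostn and another led by Nov and Sfrp2, with Tnmd, a tendon marker, among the leading genes of the second. At 16 months it was 1 cluster of 246 cells led by Ptn and Aspn, with Ostn and Postn but not Tnmd among its leading genes. The member sum was 969 CPM (920 to 1021) in the first 3 month cluster and 1153 CPM (1095 to 1213) in the second. Both were below the 16 month sum of 2101 CPM, and Irf1 was at 82.5 and 83.4 CPM in them. Without all LMP-like clusters that had Tnmd among their 10 leading genes, in any library, the ratio of the sums was 2.17 (2.04 to 2.30), with 19 members at least 2-fold higher.

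Irf1 was again the largest of these in level, at 53.3, 62.6, 82.9 and 464 CPM in LMP-like cells. Its 16 month level was 5.60 times that at 3 months (4.85 to 6.47), and the 3 young libraries lay far below it. Iigp1 was at 2.30, 2.57, 5.03 and 76.8 CPM, and Irgm1 at 4.11, 2.45, 2.15 and 55.9 CPM. The immunity-related GTPases together were at 12.7, 13.1, 16.2 and 177.1 CPM, and the guanylate-binding proteins at 11.8, 14.2, 21.2 and 92.1 CPM. In both families the young libraries were close to each other and the 16 month library stood apart. Irgm1 was 26.0 times as high at 16 as at 3 months, with an interval of 11.6 to 72.0, since its 3 month level rests on 6 UMIs. Gbp2 was at 5.10, 8.57, 12.2 and 47.7 CPM and Gbp7 at 2.63, 3.80, 5.74 and 24.7 CPM.

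Antiviral members were also higher in LMP-like cells at 16 months, from very low levels. Isg15 was at 12.5, 7.10, 10.1 and 55.5 CPM, 5.52 times as high at 16 as at 3 months (3.65 to 8.62). Ifit1 was at 0.658, 1.71, 1.08 and 18.1 CPM, with only 3 UMIs at 3 months. Parp14 was at 2.30, 1.59, 4.31 and 32.9 CPM. Each of these had its 16 month level above all 3 others. Oas1a, Mx1 and Gbp4 were at 0 UMIs in LMP-like cells of the 16 month library. The antigen processing genes were at 53.3, 31.2, 43.8 and 151 CPM as a group, with Psmb8 at 28.6, 13.1, 17.6 and 57.1 CPM and Tap2 at 4.11, 8.82, 12.2 and 46.4 CPM. At 16 months 32 of the 42 members were lower in LMP-like than in AD-like cells, Irf1, Isg15, Gbp2 and Psmb8 among them, and 10 were higher. The higher ones were Stat2, Eif2ak2, Ifit1, Ifit2, Ifit3, Ifit3b, Rsad2, Igtp, Irgm1 and Irgm2, with the widest gap for Irgm1, at 55.9 against 17.7 CPM.

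**Figure D3:**
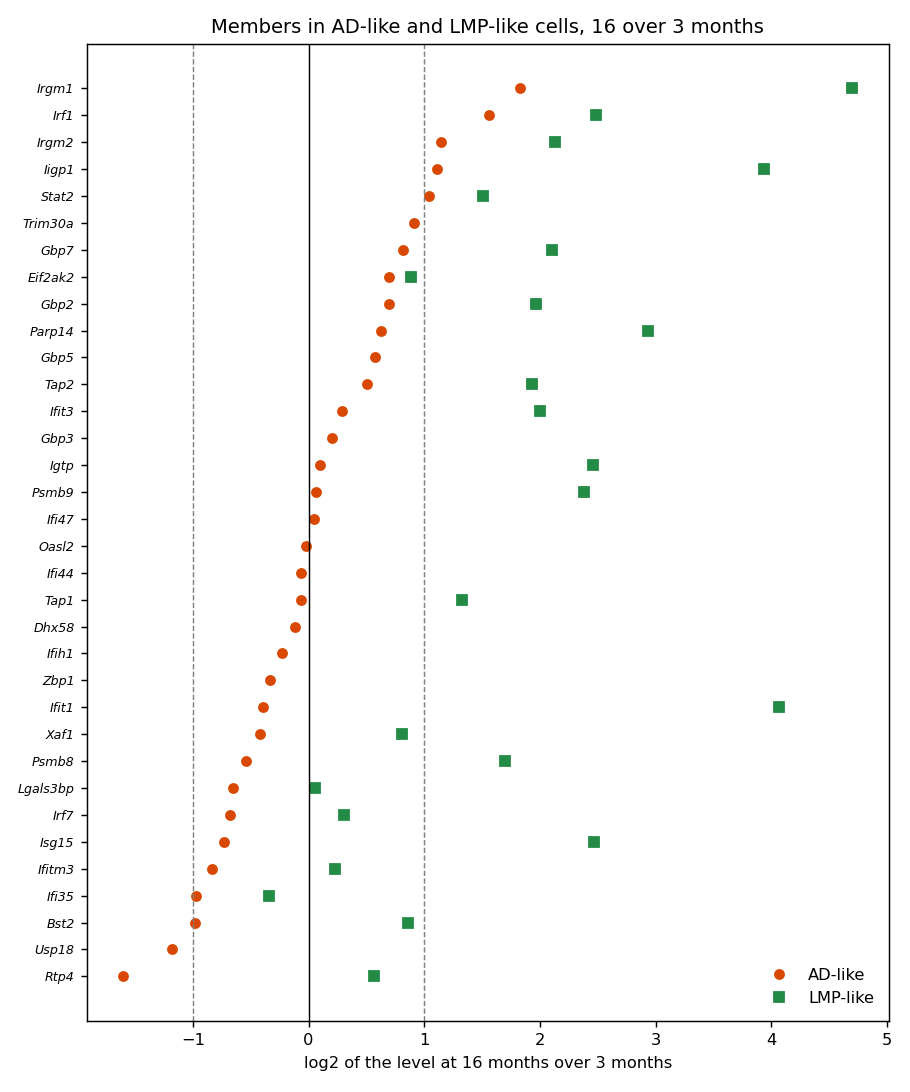
Log2 ratio of the 16 month to the 3 month level of the 34 members past the filter in AD-like cells (circles), with the value in LMP-like cells (squares) where the member passed there. Dashed lines mark a 2-fold difference, and Rtp4, Usp18, Bst2 and Ifitm3 lie below 0 in AD-like cells, whereas 16 members lie above the upper line in LMP-like cells.

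Several other measures moved with the 16 month library. The 12 immediate early and heat shock genes used as a mark of handling stress (Fos, Jun, Egr1, Hspa1a and others) summed to 13474, 16731, 17990 and 25140 CPM in AD-like cells and to 6215, 7441, 9019 and 21191 CPM in LMP-like cells. Irf1 is itself an early response gene, and the part of handling in its level was not tested. Without Irf1 the ratio of the sums was 0.659 in AD-like cells and 1.68 in LMP-like cells. The 5 AD markers (Adipoq, Lpl, Cebpa, Pparg and Apoe) summed to 487, 518, 518 and 1401 CPM in LMP-like cells, and 3.70%, 36.7%, 3.15% and 22% of these cells held an Adipoq UMI. The LMP markers Aspn (2434, 2359, 2146 and 1838 CPM) and Postn (2571, 3773, 2787 and 2596 CPM) stayed high at all ages. Among LMP-like cells with no Adipoq UMI, the member sum was 845, 860, 1041 and 1876 CPM, 1.80 times as high at 16 as at 3 months. Neutrophil markers in AD-like cells summed to 15322, 263, 2332 and 251 CPM by age and in LMP-like cells to 14189, 209, 2531 and 189 CPM, with the 1 month library the highest. Their part in the levels of the members was not tested.

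Of the AD-like, LMP-like and EMP-like classes, EMP-like cells had the most members above the threshold at the main settings, and their markers differed between the ages. The ranking turned with the settings. With a mean of at least 1 CPM the count was 24 in LMP-like and 20 in EMP-like cells. With all libraries clustered together it was 17 and 12. The EMP-like member sum was 2730, 2268, 2290 and 3984 CPM, 1.74 times as high at 16 as at 3 months (1.58 to 1.91). Of all 42 members 20 were at least 2-fold higher (47.6%, or 62.5% of the 32 past the filter), against 23.1% of the 9539 genes past the filter and 8.29% of all those listed. At least 2-fold lower were 0 members, against 13.1% of the genes past the filter. The median log2 ratio was 1.78 over the members past the filter and 0.13 over all genes past it. Here too, passing the filter depends in part on the 16 month level itself. Gbp2 was at 25.4, 13.4, 14.1 and 118 CPM, Psmb8 at 75.4, 33.1, 28.2 and 179 CPM and Irf1 at 97.6, 51.7, 98.5 and 418 CPM. Lgals3bp was at 70.6, 52.7, 46.9 and 164 CPM, and Iigp1 at 20.6, 3.10, 9.38 and 98.0 CPM. In each of these the 16 month library was the highest. The 16 month library was also the highest at lower levels for Gbp7 (14.3, 8.27, 9.38 and 58.3 CPM), for Psmb9 (16.7, 6.20, 4.69 and 72.0 CPM) and for Tap1 (20.6, 9.30, 9.38 and 49.4 CPM). Isg15 was at 113, 19.6, 14.1 and 64.8 CPM, highest at 1 month. At that age 49.3% of its UMIs lay in 1 cell, without which the level was 57.9 CPM. The 16 month level was not trimmed in this way, so these 2 values are not ranked. The antiviral core in EMP-like cells was 1.13 times as high at 16 as at 1 month (0.99 to 1.28). Tap2 was at 12.7, 24.8, 18.8 and 64.0 CPM and Ifi47 at 6.35, 1.03, 0 and 36.4 CPM. The other members above the threshold in EMP-like cells (Stat2, Ifih1, Zbp1, Ifit1, Oasl2, Xaf1, Parp14, Irgm1 and Gbp3) were between 19.4 and 38.9 CPM at 16 months and between 0 and 14.1 CPM at 3 months. The class held 161, 113, 55 and 148 cells, and for 16 of the 20 members the 3 month value rests on at most 3 UMIs, 2 of them (Parp14 and Ifi47) on 0. At 16 months the EMP markers were low (Clec3b at 2219, 3432, 2923 and 359 CPM, Ly6a at 1900, 2971, 2304 and 444 CPM), the 5 AD markers summed to 4692 CPM against 448 to 655 CPM in the young libraries, and 43.9% of the cells held an Adipoq UMI. The cells compared under this name at 3 and 16 months were therefore not alike in their markers. The handling stress sum of EMP-like cells was 7806, 12971, 14930 and 18547 CPM by age and their erythroid marker sum 7374, 2916, 319 and 7357 CPM, and the part of both in the member levels was not tested.

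Whether the levels came from many cells or a few was read from cells thinned to 3000 UMIs each, with shallower cells left out (0, 2, 67 and 64 AD-like cells by age). The share of AD-like cells with at least 3 of the 22 core members was 25.6% (19.9 to 32.0), 23.4% (21 to 25.9), 17.5% (13.7 to 21.8) and 11.2% (10.2 to 12.3), the oldest library being the lowest. Without thinning the shares were 55.8%, 46.5%, 26.9% and 46.9%, so that the order of the 3 and 16 month libraries turned with depth. The share with at least 3 of the 11 GTPases was 6.51%, 12.7%, 1.39% and 6.81%. In LMP-like cells the core share was 0.616%, 0.569%, 0.664% and 7.44% (4.47 to 11.5). The GTPase share of LMP-like cells was 0 of 649 cells at 1 month, which allows a share of up to 0.462% at a limit of 3 counts and 0.567% by the exact interval. It was 0.114% at 1.5 months, 0 of 452 cells at 3 months (up to 0.664% and 0.813% by the same limits) and 4.96% at 16 months. CH-like cells, a class with low member levels, had core shares of 0.868%, 0.0507%, 0.225% and 0.885%. In the young libraries the LMP-like shares rest on 3 to 5 cells and the CH-like ones on 1 to 5, and their intervals overlapped at each age. Before thinning the median depth was 8928, 9217, 5300 and 8824 UMIs in LMP-like cells and 12218, 15333, 8209 and 12823 UMIs in CH-like cells.

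**Figure D4:**
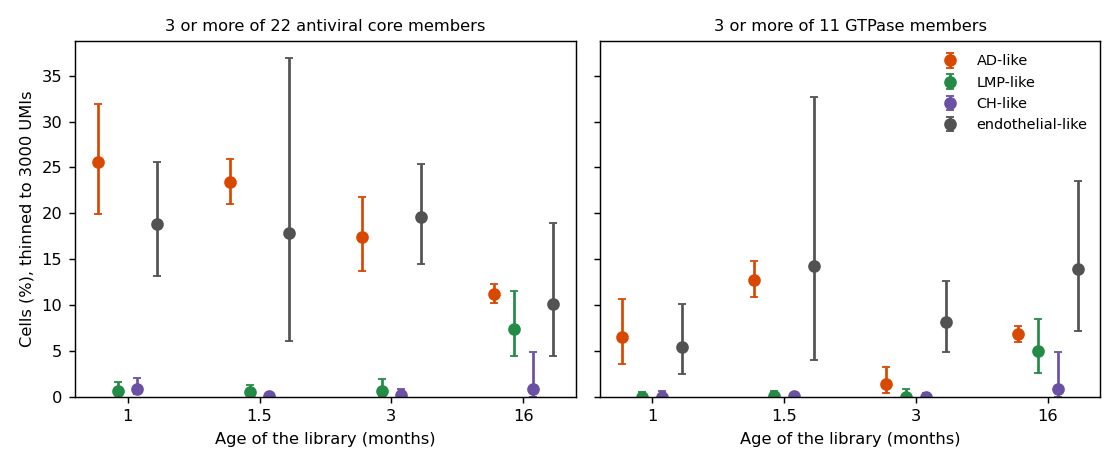
Percent of cells, each thinned to 3000 UMIs, with at least 3 members of the antiviral core (left) or of the GTPase families (right) in 4 cell classes, by age of the library in months, with exact 95% binomial intervals. In AD-like cells the core share is lower at 16 months (11.2%) than at the other ages, and in LMP-like cells it is higher (7.44%).

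Within AD-like cells of the 16 month library, a small cluster stood far above the rest. The class was made of 7 clusters, and their member sums were 4036 to 4452 CPM in 6 of them and 15056 CPM in the seventh, of 22 cells. That cluster was led by the chemokine genes Cxcl9 and Cxcl10 (10921 and 5730 CPM), which are themselves interferon targets but no members. Its immunity-related GTPases were at 3737 CPM against 181 to 304 CPM elsewhere, its guanylate-binding proteins at 2178 CPM against 108 to 211 CPM, and its antiviral core at 1977 CPM against 335 to 539 CPM. Iigp1 reached 2553 CPM and Gbp2 1224 CPM in these cells. They held 0.8% of the Irf1 UMIs of the class, 10.4% of its Iigp1 UMIs, 10.2% of its Gbp2 UMIs and 55.6% of its Gbp4 UMIs. Since the clusters were drawn from the same cells, these values describe the cells and carry no test.

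Irf1 followed another pattern among these clusters. It was at 848, 465, 1019, 173, 760 and 581 CPM in the 6 larger clusters and at 769 CPM in the cluster with Cxcl9. The cluster of 708 cells with the lowest Irf1 (173 CPM, below the 3 month level of the class) also had the lowest handling stress sum, 10800 CPM against 19510 to 34917 CPM. In the same 708 cells the antiviral core was at 539 CPM, near the 535 CPM of the 3 month class, and the immunity-related GTPases at 304 CPM, the highest of the 6. The highest Irf1 (1019 CPM) and the highest handling stress sum also lay in 1 cluster, of 742 cells. The leading genes of that cluster include the heat shock genes Hsph1, Hspb1 and Hsp90aa1. In the remaining clusters Irf1 was at 848, 769, 760, 581 and 465 CPM, and the handling stress sum at 22624, 19510, 26726, 30131 and 27180 CPM. Since the clusters were drawn from the same cells, these values carry no test. The part of handling in Irf1 was not tested.

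**Figure D5:**
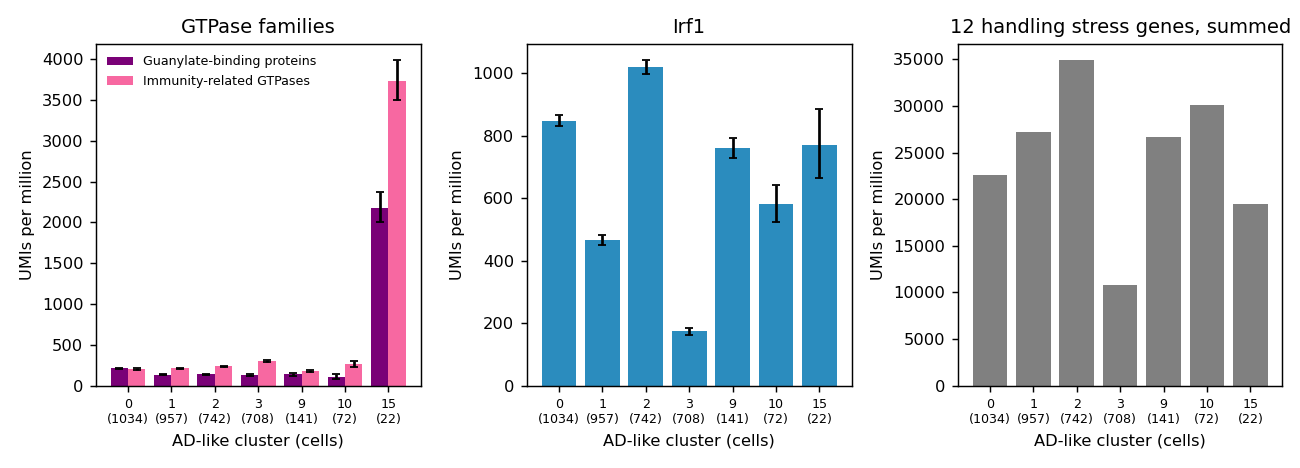
Levels (CPM) of the GTPase families, of Irf1 and of the 12 handling stress genes in the 7 clusters of AD-like cells at 16 months, with cell numbers in brackets and exact 95% Poisson intervals on the first and second panels. The cluster of 22 cells is the highest in both GTPase families, whereas Irf1 is lowest (173 CPM) in the cluster of 708 cells, which also has the lowest handling stress sum. In the clusters between the lowest and the highest Irf1, the order of the handling stress sums differs from that of Irf1. No relation between them was tested.

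Erythroid-like and endothelial-like cells had high levels of single members. Rsad2, whose ISRE is printed above, was at 204, 156, 49.7 and 194 CPM in erythroid-like cells, and 44.2%, 43.2%, 21% and 52.3% of these cells held a UMI of it. Isg15 was at 306, 88.2, 89.1 and 110 CPM there, and the second value was 39.5 CPM without the 1 cell, of 37, that held 55.9% of its UMIs. Endothelial-like cells had Rsad2 at 127, 23.9, 52.0 and 82.2 CPM and Iigp1 at 86.6, 438, 297 and 528 CPM, and their Rsad2 at 16 months was 52.9 CPM without 1 cell. In AD-like cells Rsad2 was at most 4.83 CPM and 3.26%, 0.683%, 1.17% and 1.66% of the cells held a UMI of it, at a median depth of 6953, 5781, 3882 and 9593 UMIs against 9435, 7763, 6740 and 11331 UMIs in erythroid-like cells. The erythroid-like share was thus above the AD-like share in every library, but in deeper cells, and the part of depth was not tested. Ifit1, Ifit2, Ifit3, Oas1a and Oasl2 were at most 7.12 CPM in erythroid-like cells. In CH-like cells at 16 months the 28 UMIs of Rsad2 all lay in 1 cell and 84.4% of those of Isg15 in 1 cell. Macrophage-like cells had Bst2 at 523, 450, 399 and 306 CPM and Psmb8 at 429, 388, 398 and 172 CPM. Trim30a was at 49.8, 6.92, 54.8 and 104 CPM in them, a member that was at most 9.40 CPM in AD-like cells. Irf1 was higher at 16 than at 3 months in endothelial-like cells too, at 85.9, 175, 188 and 482 CPM.

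Upstream of the members, the ligands were nearly absent from AD-like, LMP-like and EMP-like cells, whereas receptors were seen. Ligand levels of the blood cell classes are not given here. The 8 interferon genes looked at (Ifna1, Ifna2, Ifna4, Ifna5, Ifnb1, Ifng, Ifnl2 and Ifnl3) gave 0 UMIs in LMP-like and EMP-like cells of every library and 1 UMI in all AD-like cells, at 16 months. By the 2-fold rule used for the members, 1 of 35 genes of the interferon pathway was higher at 16 than at 3 months in AD-like cells (H2-T23) and 1 lower (B2m), or 2.86% each, with 23 past the filter. Over all listed genes the shares were 4.30% and 1.94%, and over the genes past the filter the 12.2% and 5.5% given above. In LMP-like cells 9 of 35 were higher (Ifnar2, Jak1, Jak2, Irf9, Irf8, Socs1, Socs3, H2-K1 and H2-T23), or 25.7%, and 1 lower (B2m), or 2.86%, with 21 past the filter. Over all listed genes these shares were 6.41% and 2.83%, and over the genes past the filter 18.1% and 8.01%. The pathway shares are of all 35 genes, so the listed genes are the like base. In AD-like cells Ifnar2 was at 197, 281, 290 and 392 CPM, Ifngr1 at 187, 284, 285 and 270 CPM and the kinase Jak1 at 291, 194, 295 and 337 CPM. In LMP-like cells Ifnar2 was at 62.9, 62.7, 75.7 and 173 CPM, highest at 16 months. Socs3, a feedback inhibitor that other cytokines also induce, was at 503, 996, 857 and 1170 CPM in AD-like cells, and LMP-like cells had 259, 556, 610 and 1444 CPM. The MHC class I genes, which depend on the antigen processing members, were at 9429, 18326, 16954 and 11113 CPM as a group in AD-like cells, against 1590, 1777, 2568 and 2552 CPM in LMP-like cells. The LMP-like sum joins genes that differed in opposite directions between 3 and 16 months. B2m, the light chain, was at 1572 and 687 CPM, whereas the heavy chain gene H2-K1 was at 144 and 531 CPM and H2-T23 at 13.3 and 73.6 CPM.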

How the data were processed

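Endosteal marrow cells of 4 pools of mice were profiled, 1 droplet library per age. The deposited tables hold UMI counts per gene and cell, which the authors made with Cell Ranger 3.0.2 on mm10 with the reporter added, and the submitters' notes also name Seurat 2. No column of the tables was without a sample. The 43 members, the marker lists and the pathway list were chosen with earlier results of these data known. A gene of the pathway list is not reported here.

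Barcodes were kept at 200 to 6000 genes and 5% or less mitochondrial UMIs, and clustered with Seurat 5.3.0 in R 4.3.3 (2000 variable genes less members, pathway genes and markers, 30 components, resolution 0.8), the 1 and 1.5 month libraries together after alignment and the 3 and 16 month libraries each alone. A cluster was named from at least 3 markers of a type, each 2-fold or more above the median of the other clusters and present in 10% or more of the cells. No doublets were removed, and Scrublet in scanpy 1.11.5 served as an alternative. Counts were summed per class and library and scaled to CPM over 26600 shared genes in Python 3.11.15. Intervals are exact (scipy 1.17.1, 95%). With 1 library per age no test was run. A zero was set to 3 counts in ratios, and the interval of a ratio is the exact conditional one for 2 counts.

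Values were given in every library for members at 50 CPM or more in a class, for those at least 2-fold different between 16 and 3 months, and for others by role. The counting of ratios was tested on simulated data. The genome positions of motif matches are in GRCm38.p6, the assembly of mm10. Alternatives were the resolution (0.5 and 1.2), a 10% mitochondrial limit, 1 joint clustering, the removal of high Scrublet scores, other scalings, filters and folds, other thinning depths, and leaving out single genes, cells or a cluster.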

Additional observations from a re-analysis of the deposited data

Results flagged for a closer look

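The sum of the 42 members at 16 over 3 months went in opposite directions in different cell classes of the same pair of libraries. It was 0.752 in AD-like cells (0.737 to 0.767), 1.74 in EMP-like cells (1.58 to 1.91) and 1.99 in LMP-like cells (1.90 to 2.08). Without Ifitm3 the ratios were 1.04 (1.01 to 1.08), 4.08 (3.35 to 5.03) and 3.38 (3.16 to 3.63), each above 1. Each class had 1 library per age, so the difference between the classes was not tested. The antiviral core, which does not hold Ifitm3, also had ratios on both sides of 1. Its ratio was 0.748 in AD-like cells (0.701 to 0.80), 2.78 in EMP-like cells (1.93 to 4.13) and 2.53 in LMP-like cells (2.22 to 2.89). The immunity-related GTPases were higher at 16 than at 3 months in all 3 classes, with ratios of 1.83 (1.61 to 2.08), 11.39 (4.40 to 42.1) and 10.97 (8.05 to 15.3). In AD-like cells they were lower at 16 than at 1.5 months, at 0.665 times that level (0.637 to 0.695). The EMP-like ratio rests on 4 UMIs at 3 months, and the markers of EMP-like cells differed between the ages, as given above. CH-like cells, from low levels, had ratios of 2.83 (2.64 to 3.04) for the member sum and 3.74 (3.24 to 4.31) for the core. Their ratio for the immunity-related GTPases was 6.89 (5.06 to 9.41).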

How the results depend on the processing

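No paired analysis was possible because each age has 1 library. The alternatives for LMP-like cells, those without Irf1, without Ifitm3 and Irf1, without LMP-like clusters with Tnmd among their leading genes, without cells that hold an Adipoq UMI and without the cluster led by Cxcl9 and Cxcl10 were chosen after seeing the data. In AD-like cells, the ratio of the member sum at 16 over 3 months (0.752) stayed within its interval in 8 of 12 alternatives. It was 1.04 without Ifitm3, on the other side of 1, 0.825 without Ifitm3 and Irf1, 0.736 with each cell thinned to 3000 UMIs and 0.659 without Irf1. The EMP-like ratio of 1.74 was above 1 in all 10 alternatives that gave a value. It was 2.07 at resolution 1.2, 1.55 at 10% mitochondrial UMIs, 1.43 when all 4 libraries were clustered together, 1.57 without high Scrublet scores and 4.08 without Ifitm3. At resolution 0.5 no cluster of the 16 month library was EMP-like and no value could be given: 107 of its 148 cells fell in LMP-like and 39 in AD-like clusters. With all 4 libraries clustered together, only 24 cells of the 16 month library were EMP-like, 22 of them from the 148. Of the 148, 80 fell in unnamed and 45 in AD-like clusters, so that ratio describes few of the same cells. The LMP-like ratio of 1.99 was also above 1 in all 12. It was 2.17 without the clusters with Tnmd, 2.52 at resolution 0.5, 2.15 at resolution 1.2, 1.89 without high Scrublet scores, 3.38 without Ifitm3, 1.68 without Irf1 and 1.80 without cells that hold an Adipoq UMI. In neutrophil-like cells the ratio of 0.665 turned to 1.10 at 10% mitochondrial UMIs. It was 0.900 at resolution 0.5, 0.804 without high Scrublet scores, 0.761 as a mean over cells, 0.937 without Ifitm3 and 0.762 when thinned. The cause of these shifts was not tested.

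Of the members, 5 were at least 2-fold higher in AD-like cells and 10 at least 1.5-fold higher, and 4 to 6 under the other alternatives. In EMP-like cells the count of 20 was 12 when all libraries were clustered together (24 cells at 16 months) and 20 to 25 otherwise. In LMP-like cells the count of 16 ranged from 16 to 24. The share of AD-like cells with at least 3 core members at 16 months (11.2%) was 26.8% for at least 2, 2.10% for at least 5, 5.80% when thinned to 2000 UMIs and 46.9% without thinning. At 3 months (17.5%) the same settings gave 35.2%, 2.49%, 10.5% and 26.9%, so that the older library was the higher of the pair only without thinning. The 3 month library is the shallowest, and classes of few cells, such as the 55 EMP-like ones, limit what it can show.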
